A study of Rattus norvegicus with 12 samples.

Results

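Genes of the mitochondrial genome that encode subunits of respiratory complexes III, IV and V were followed in rat spinal cord after injury. They were Mt-cyb (ENSRNOG00000031766) of complex III, Mt-co1 (ENSRNOG00000034234), Mt-co2 (ENSRNOG00000030371) and Mt-co3 (ENSRNOG00000030700) of complex IV, and Mt-atp6 (ENSRNOG00000031979) and Mt-atp8 (ENSRNOG00000033299) of complex V. They were taken by a list of 6 Ensembl identifiers, which also gave their symbols, from a table of 32883 genes. All 6 were in the table, and all 6 were among the 5285 genes that passed the filter on low counts. The tissue was the ninth thoracic segment (T9) of the cord of Sprague Dawley rats, an outbred strain. Uninjured cord (4 libraries) was compared with cord 5 days after a T9 hemisection (4 libraries), which cuts 1 side of the cord, and with cord 5 days after the same hemisection plus epidural electrical stimulation over segments L2 to S1 (4 libraries), hereafter stimulated cord. RNA came from the injured segment and not from the stimulated ones. The labels give no animal numbers, ages or sexes, and do not say whether the unstimulated rats carried electrodes. P-values therefore measure the spread between these libraries, which may be partly technical.

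Complexes III, IV and V are the last steps of oxidative phosphorylation in the inner mitochondrial membrane. Complex III passes electrons from ubiquinol to cytochrome c, complex IV passes them from cytochrome c to oxygen, and both move protons out of the matrix. Complex V, the ATP synthase, lets the protons back and makes ATP. Each complex also has many subunits encoded in the nucleus, which are imported from the cytosol. The mitochondrial messages are cut from long transcripts that cover many genes, so their levels after cutting depend on how stable each one is. Mt-atp8 and Mt-atp6 are read from a shared message with overlapping frames. Neurons depend heavily on this pathway for ion pumping and axonal transport.

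The libraries held 204836 to 553986 counts each, lowest on average in stimulated and highest in injured cord. No count exceeded 4094 in any library, and the top gene of each stood at 4059 or more, just below the number of different identifiers that 6 bases can form, called the ceiling here. If reads were collapsed to such identifiers, which no source used here states, a gene near the ceiling would be undercounted, and more so in deeper libraries. Mt-cyb reached 3509 counts, or 85.7% of the ceiling, Mt-co2 reached 3423 (83.6%) and Mt-atp6 reached 3154 (77.0%). Mt-co1 stayed at or below 1658 counts (40.5%), Mt-co3 at or below 604 (14.7%) and Mt-atp8 at or below 167 (4.08%). By mean count Mt-cyb, Mt-atp6 and Mt-co2 ranked 8, 9 and 11 in the whole table, Mt-co1 ranked 28, Mt-co3 ranked 183 and Mt-atp8 ranked 561. Results for the first 3 are therefore given both from the deposited counts and after a correction for identifier collisions, which estimates how many molecules would leave the observed number of distinct identifiers. All corrected values assume that reads were collapsed in this way. Stimulated replicate 1 was the shallowest library, and it had the lowest count of all 6 genes.

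**Figure D1:**
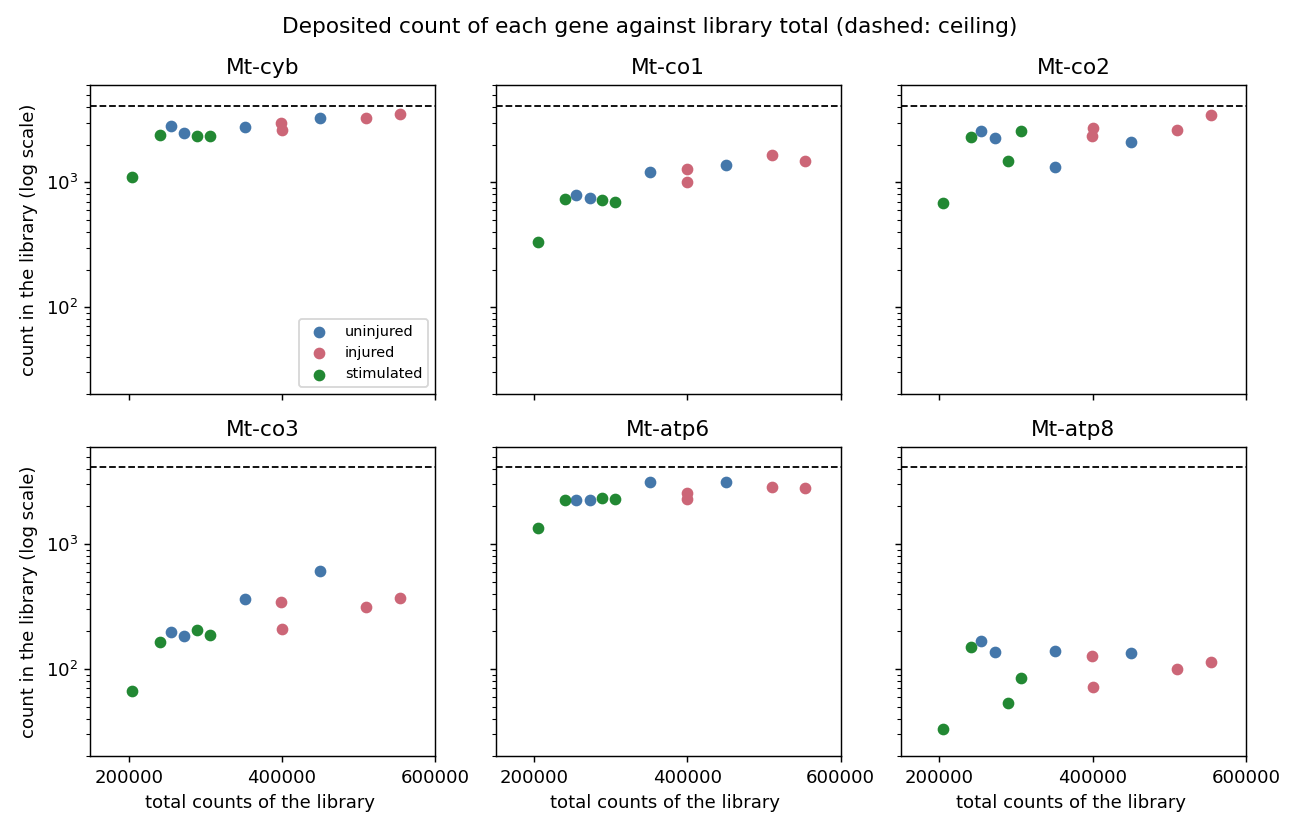
Deposited count of each gene (y axis, log scale) against the library's total count (x axis), with 1 point per library, colours for the groups and a dashed line at the ceiling. Mt-cyb, Mt-co2 and Mt-atp6 lie closest to the line, and stimulated replicate 1, at the far left, is the lowest point in every panel.

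Levels are given below in CPM, counts scaled to a common library size with TMM factors. The test was edgeR's quasi-likelihood test over all 5285 genes, with Benjamini-Hochberg adjusted p and a threshold of 0.05. Less RNA of these genes in a piece of cord can come from fewer cells of a type or from less RNA per cell, and the 2 cannot be told apart in bulk tissue. Markers of cell types were not checked, because the identifiers of other genes were not paired with names in the tables used here.

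In complex V both genes, which are read from a shared message, were lower after injury. Mt-atp6 encodes the subunit a that forms the proton path beside the rotor of the ATP synthase. In uninjured cord it was at 9752, 7561, 10360 and 8454 CPM in replicates 1 to 4, a mean of 9032 ± 1262 CPM (SD, n = 4). In injured cord it was at 5566, 5888, 6676 and 4709 CPM, a mean of 5710 ± 814 CPM. Every injured library was below every uninjured one, a separation that 13.5% of all tested genes showed in that direction. The log2 fold change was -0.66 (SE 0.24, edgeR adjusted p = 0.0415).

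That call was a narrow one. Mt-atp6 stayed lower in injured cord under every setting tried, with a log2 fold change between -0.76 and -0.52. After the correction for identifier collisions the change was -0.76, and the injured libraries, at 6545 to 8542 corrected CPM, were again all below the uninjured ones, at 10261 to 16488, as in 13.7% of tested genes. The edgeR adjusted p then was 0.0590. When 1 library was left out the adjusted p ranged from 0.0430 to 0.0989, under the threshold in 3 of 12 cases. The edgeR call was also lost with total counts (adjusted p = 0.0736) and with only the 2 groups compared (0.105). With the log2 library total as a covariate the adjusted p was 0.223, and without a filter it was 0.261. Of the 11 settings that kept all libraries or changed the method, 6 kept the call.

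Mt-atp8 encodes a small subunit of the membrane stalk of the same enzyme. It had the largest fold change of the 6 genes with injury. Uninjured cord had 724, 324, 453 and 520 CPM, a mean of 505 ± 167 CPM (SD, n = 4), and injured cord had 197, 184, 335 and 191 CPM, a mean of 227 ± 72.2 CPM. Injured replicate 3, at 335 CPM, lay just above uninjured replicate 2, so the groups overlapped by 1 library. The log2 fold change was -1.15 (SE 0.39, edgeR adjusted p = 0.0321). It is a gene of low counts, 71 to 127 in the injured libraries and 135 to 167 in the uninjured ones, far from the ceiling. With the log2 library total as a covariate its log2 fold change was -0.59 (edgeR adjusted p = 0.392), and the call was also lost without uninjured replicate 1 (-0.96, adjusted p = 0.0893) and without injured replicate 1, 2 or 4 (adjusted p = 0.0608, 0.0782 and 0.0731).

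With stimulation, Mt-atp6 was at 7580, 8091, 8912 and 10433 CPM, a mean of 8754 ± 1247 CPM (SD, n = 4). All 4 stimulated libraries lay above all 4 injured ones, as in 2.25% of tested genes, and their range was close to that of the uninjured ones, 7561 to 10360 CPM. The log2 fold change against injured cord was 0.62 (SE 0.24), with an unadjusted p of 0.0190 by edgeR, which 203 of 5285 genes reached or passed, and an edgeR adjusted p of 0.486. After the collision correction the change was 0.43 (edgeR adjusted p = 0.640), and the groups overlapped, since stimulated replicate 1, at 7593 corrected CPM, lay below injured replicate 3. Against uninjured cord Mt-atp6 differed by -0.04 (SE 0.24, edgeR adjusted p = 0.904), and by -0.32 after the correction.

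Mt-atp8 in stimulated cord was spread widely, at 187, 297, 204 and 701 CPM, a mean of 347 ± 241 CPM. Stimulated replicate 4 was nearly as high as uninjured replicate 1, and replicates 1 and 3 were at the level of the injured ones. Its log2 fold change was 0.62 against injured cord (SE 0.40, edgeR adjusted p = 0.615) and -0.54 against uninjured cord (SE 0.39, adjusted p = 0.317). Without stimulated replicate 4 these were 0.02 and -1.12, and the second passed the threshold (edgeR adjusted p = 0.0214). The level of Mt-atp8 in stimulated cord thus rested on 1 library.

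In complex III, Mt-cyb encodes cytochrome b, the subunit that holds the quinone sites and is the one mitochondrial gene product of that complex. It was at 12302, 7863, 9089 and 9361 CPM in uninjured cord, a mean of 9654 ± 1882 CPM (SD, n = 4). Injured cord had 6402, 6793, 7874 and 5939 CPM, a mean of 6752 ± 826 CPM. The groups met at 1 library each, uninjured replicate 2 and injured replicate 3. The log2 fold change of -0.52 did not pass the edgeR test (SE 0.25, adjusted p = 0.131), and its limma-voom 95% interval ran from -1.003 to -0.0025. DESeq2 put it just past the threshold (-0.53, adjusted p = 0.0489). After the collision correction the change was -0.39 (edgeR adjusted p = 0.365), and the injured libraries, at 8893 to 11592 corrected CPM, were all below the uninjured ones, at 12049 to 17425. After the correction 13.7% of tested genes showed that separation in that direction.

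In stimulated cord Mt-cyb was at 6238, 8285, 8924 and 10999 CPM, a mean of 8611 ± 1961 CPM, between the means of the other groups. Replicates 2 to 4 were above all injured libraries and replicate 1 was among them. The log2 fold change against injured cord was 0.35 (SE 0.25, edgeR adjusted p = 0.652), and against uninjured cord it was -0.16 (SE 0.25, adjusted p = 0.661). After the collision correction the difference from injured cord turned to -0.07 (edgeR adjusted p = 0.959), and the difference from uninjured cord was -0.46 (adjusted p = 0.276). Mt-cyb counts were 64.1% to 85.7% of the ceiling in injured cord and 26.9% to 57.9% in stimulated cord. With the log2 library total as a covariate the difference from injured cord was 0.05 (edgeR adjusted p = 0.994). Every injured library was deeper than every stimulated one, so that fit cannot separate depth from group. The part of the ceiling in the difference was not tested further.

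In complex IV no gene passed the edgeR test in any of the 3 comparisons. Mt-co1 encodes the catalytic subunit, which binds the heme and copper where oxygen is reduced. It was at 3434, 3321, 3974 and 2851 CPM in uninjured cord (mean 3395 ± 461, SD, n = 4), at 3260, 2571, 3343 and 2486 CPM in injured cord (2915 ± 449), and at 1870, 2437, 2752 and 3379 CPM in stimulated cord (2609 ± 630). The means were in the order uninjured, injured, stimulated, and neighbouring groups overlapped. The log2 fold changes were -0.22 (SE 0.26, edgeR adjusted p = 0.556) for injured against uninjured, -0.16 (SE 0.26, adjusted p = 0.859) for stimulated against injured, and -0.38 (SE 0.26, adjusted p = 0.281) for stimulated against uninjured cord. The limma-voom 95% intervals of the first and the second were -0.73 to 0.28 and -0.69 to 0.34.

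Mt-co2 encodes the subunit that takes electrons from cytochrome c. It varied most within groups among the members at high counts. Uninjured cord had 11170, 5003, 4342 and 8591 CPM (mean 7277 ± 3197, SD, n = 4), and stimulated cord had 3852, 9113, 5680 and 10753 CPM (7350 ± 3147). Injured cord lay inside that spread, at 5106, 6980, 6144 and 5794 CPM (6006 ± 779). The log2 fold changes were -0.28 (SE 0.35, edgeR adjusted p = 0.583) with injury, 0.29 (SE 0.35, adjusted p = 0.796) for stimulated against injured, and 0.02 (SE 0.35, adjusted p = 0.978) for stimulated against uninjured cord. The limma-voom 95% interval of the second, -0.52 to 0.91, took in changes of either sign. After the collision correction the 3 values for Mt-co2 were -0.06, 0.0049 and -0.06 (edgeR adjusted p = 0.932, 0.998 and 0.931). The change with injury ranged from -0.49 without uninjured replicate 3 to -0.02 without uninjured replicate 1. The value for stimulated against injured cord fell to 0.04 when stimulated replicate 4 was left out and was 0.50 when stimulated replicate 1 was.

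Mt-co3 encodes the third of the core subunits, which does not take part in electron transfer itself. Uninjured cord had 854, 1449, 1182 and 691 CPM (mean 1044 ± 339, SD, n = 4), injured cord had 615, 543, 912 and 620 CPM (672 ± 163), and stimulated cord had 380, 662, 780 and 756 CPM (644 ± 184). Both injured groups had lower means than uninjured cord, and both overlapped with it. The log2 fold change was -0.64 (SE 0.31, edgeR adjusted p = 0.130) with injury and -0.70 (SE 0.31, adjusted p = 0.0977) for stimulated against uninjured cord. Without uninjured replicate 4 the latter was -0.87 and passed (edgeR adjusted p = 0.0453), and with the log2 library total as a covariate the former was -0.98 and passed just (adjusted p = 0.04999). Stimulated and injured cord differed by -0.06 (SE 0.31, adjusted p = 0.967).

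**Figure D2:**
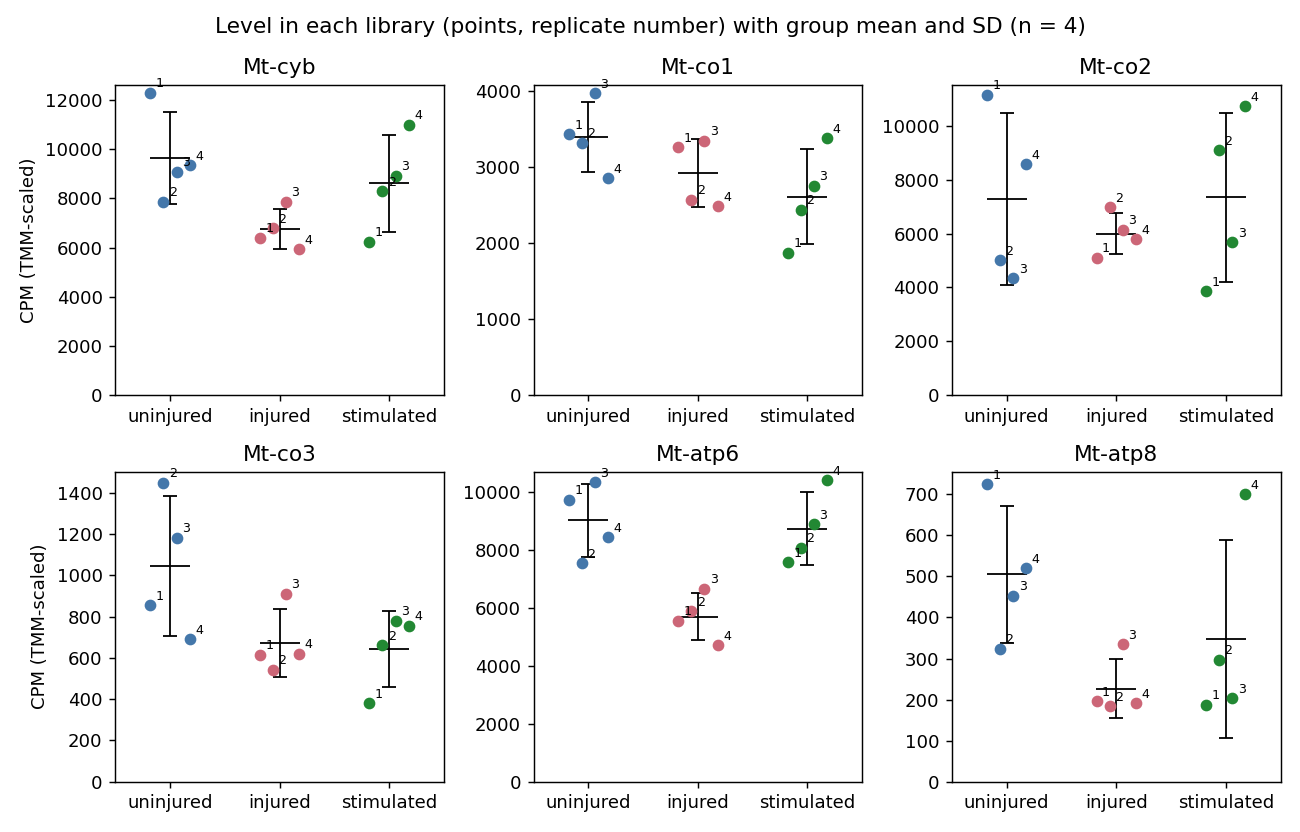
Level of each gene in each library (points, numbered by replicate) in TMM-scaled CPM, by group, and bars for mean and SD (n = 4). For Mt-atp6 the injured libraries (4709 to 6676 CPM) lie below all others, and for Mt-co2 the uninjured and stimulated libraries span more than the injured ones.

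Across the 3 comparisons, 2 of the 6 genes were called between injured and uninjured cord, both lower. Of all tested genes 32.0% were called there, 15.2% lower and 16.8% higher. A share of 2 in 6 is thus near the background called in either direction and above that called lower. With only 6 genes that difference was not tested. The 2 called, Mt-atp6 and Mt-atp8, are read from a shared message, so their calls need not be independent. All 6 fold changes with injury were below 0, as were those of 2648 of the 5285 tested genes. With the log2 library total as a covariate Mt-co2 was at 0.13. The median of the 6 was -0.58 on the log2 scale, and the median over all tested genes was 0.00. The 23 other genes whose mean count was over 25% of the ceiling had a median of -0.50, with 16 lower and 7 higher. After the collision correction the medians of the 6, of all tested genes and of these 23 were -0.53, -0.02 and -0.40. Between stimulated and uninjured cord 0 of the 6 passed by edgeR, DESeq2 or limma-voom, where edgeR called 34.6% of tested genes. At an unadjusted p under 0.05 there was 1, Mt-co3, where 43.5% of tested genes were. The comparisons of both injured groups share the uninjured libraries.

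Between stimulated and injured cord 0 of the 6 genes passed, as did 0 of 5285 genes (0.00%), by edgeR. Mt-atp6 alone of the 6 had an unadjusted p under 0.05, which 9.29% of tested genes had. DESeq2 and limma-voom also called 0 of the 6, and 1 and 0 genes in all. The median log2 fold change of the 6 genes was 0.32, that of the same 23 other genes of high count was 0.53, and that of all tested genes was 0.00. Of the 6 genes 4 were higher and 2 lower, and of the 23 other genes 22 were higher and 1 lower. After the correction for identifier collisions these were -0.03, 0.29 and -0.01. The higher median of the 6 genes in stimulated cord was thus not seen after the correction. Mt-atp8 (0.60), Mt-atp6 (0.43) and Mt-co2 (0.0049) then had values above 0, and the other 3 had values below 0. With the log2 library total as a covariate, on deposited counts, the median of the 6 was 0.0035.

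**Figure D3:**
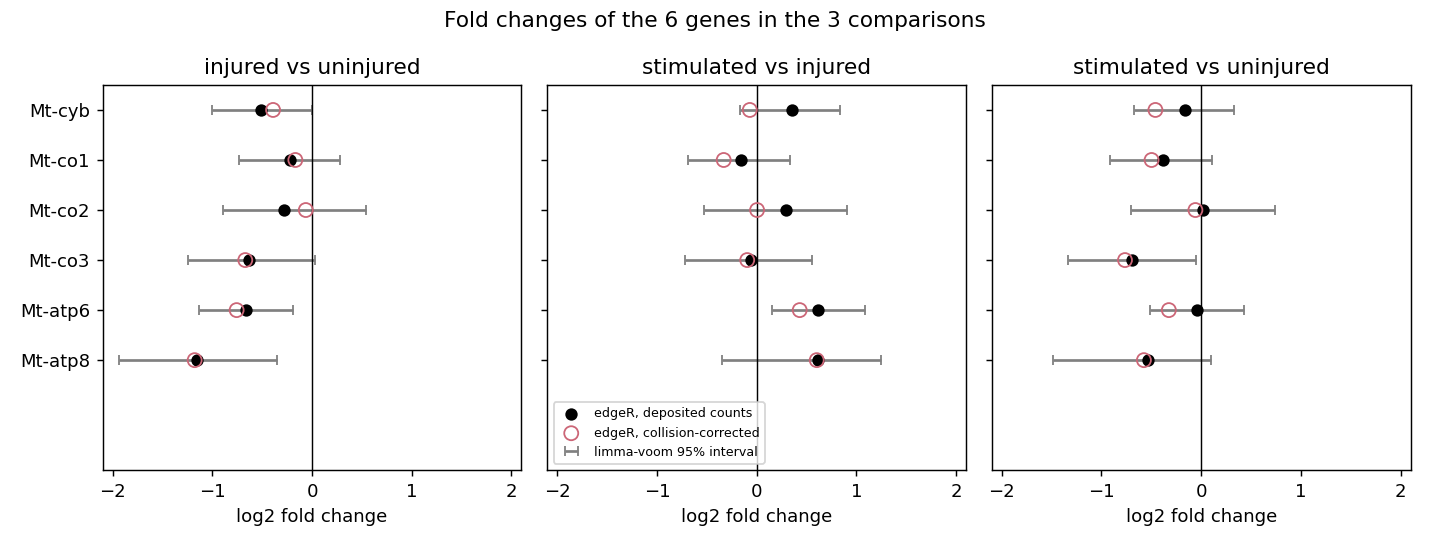
Log2 fold change of each gene in the 3 comparisons, from edgeR on deposited counts (filled) and on collision-corrected counts (open), with limma-voom 95% intervals (bars) from deposited counts. Mt-cyb, Mt-atp6 and Mt-atp8 have intervals below 0 with injury, and for Mt-cyb the open point of stimulated against injured cord lies at -0.07 where the filled one is at 0.35.

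Ratios between 2 of the genes in the same library need no library scaling. They were examined after the levels had been seen, for all 15 pairs in the 3 comparisons, 45 tests in all, by exact two-sided permutation of libraries. Between stimulated and injured cord the libraries did not overlap in 4 of 15 pairs, and in 3 of 15 after the collision correction. Among all pairs of tested genes with a mean count of at least 100 that share was 5.36%, and 4.62% after the correction. Pairs that have a gene in common are not independent of each other. Mt-atp6 was in 3 of the 4 pairs, set against Mt-co1, Mt-cyb and Mt-co3, and the other pair was Mt-cyb with Mt-co1. Between injured and uninjured cord 1 pair, Mt-co2 with Mt-atp8, did not overlap, where 41.4% of pairs did not, and after the correction it was 2, where 41.3% did not. Between stimulated and uninjured cord it was 1 as deposited, where 45.1% did not, and 0 after the correction, where 45.0% did not.

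The ratio of Mt-atp6 to Mt-co1 counts had the largest difference between stimulated and injured cord of the pairs that did not overlap. Uninjured cord had 2.84, 2.28, 2.61 and 2.97 in replicates 1 to 4, injured cord had 1.71, 2.29, 1.997 and 1.89, and stimulated cord had 4.05, 3.32, 3.24 and 3.09. All stimulated libraries were above all others (against uninjured cord, the ratio to Mt-co1 separated in that direction in 22.1% of tested genes), and the injured ones were lowest but for injured replicate 2, which was just above uninjured replicate 2. The stimulated ratio was 1.74 times the injured one, a log2 difference of 0.80 (exact permutation p = 0.0286, adjusted p = 0.214 over the 45 tests). With 4 libraries a group no smaller exact p is possible, and the difference does not pass the adjusted threshold.

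After the collision correction the ratio of Mt-atp6 to Mt-co1 had a mean of 3.83 ± 0.275 in uninjured cord (SD, n = 4). The mean was 2.59 ± 0.267 for injured libraries and 4.39 ± 0.264 for stimulated ones. Injured cord then lay below both other groups in every library, with a ratio 0.673 times that of uninjured cord (exact permutation p = 0.0286, adjusted p = 0.257). Stimulated cord remained 1.70 times above injured cord, with a log2 difference of 0.77 (exact permutation p = 0.0286, adjusted p = 0.257). Stimulated and uninjured cord overlapped (exact permutation p = 0.0571). Among all other tested genes, the ratio to Mt-co1 was higher in every stimulated than in every injured library in 2.65%, and in 4.26% after the correction. It was lower in every injured than in every uninjured library in 10.8% after the correction. By group mean, injured libraries were the deepest and stimulated ones the shallowest. Every injured library, at 399386 counts or more, was deeper than every stimulated one, at 306186 or fewer, and uninjured libraries overlapped with both. Depth and group thus cannot be told apart between stimulated and injured cord. The part of depth in the ratio was not tested beyond this correction.

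**Figure D4:**
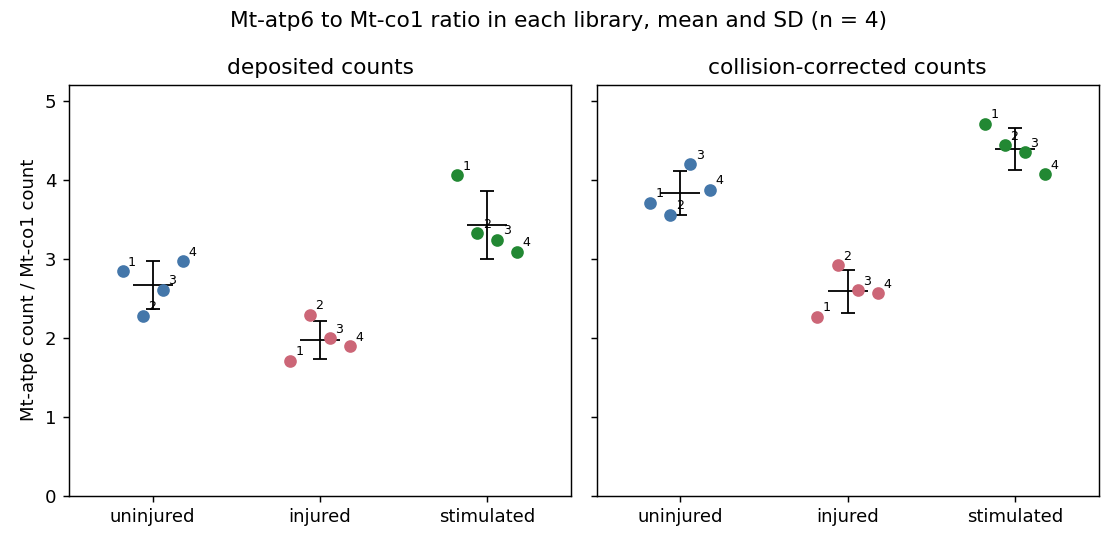
Ratio of Mt-atp6 to Mt-co1 counts in each library (points, numbered by replicate) from deposited counts (left) and collision-corrected counts (right), with bars for mean and SD (n = 4). On the left the stimulated libraries (3.09 to 4.05) are above all others, and on the right the injured libraries (2.26 to 2.92) are below all others.

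Within groups the genes did not move as 1 block. The SD of log2 CPM within groups was 0.20 for Mt-atp6, 0.27 for Mt-cyb, 0.27 for Mt-co1, 0.43 for Mt-co3, 0.55 for Mt-co2 and 0.61 for Mt-atp8. The median over all tested genes was 0.48, and over the 631 with a mean count of at least 100 it was 0.45. In deposited counts Mt-cyb kept a nearly fixed part of the sum of the 6 genes, 28.7% to 32.7% in the 12 libraries. Mt-co2 held from 14.8% to 31.5% and Mt-atp6 from 23.9% to 37.7%. These SDs and shares were not corrected for identifier collisions. If reads were collapsed to identifiers, undercounting near the ceiling could narrow the spread of Mt-cyb, Mt-atp6 and Mt-co2.

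The share of Mt-co2 among the 6 genes followed a split of the libraries that other genes also showed. A component of the within-group variation, computed without the 6 genes, held 39.5% of that variance and put 2 libraries of each group on either side of 0. Values were centred in each group first, so libraries on both sides of 0 in every group are built in, though 2 on each side is not. In uninjured replicates 1 and 4, injured replicates 2 and 4, and stimulated replicates 2 and 4, which scored above 0, Mt-co2 held 28.2% to 31.5% of the 6 genes' counts. In the other 6 libraries, which scored below 0, it held 14.8% to 24.3%. The 2 ranges did not overlap, and no test was made of this division, which comes from the data and not from the labels. The CPM of Mt-co2 did not divide the injured libraries in this way, since injured replicate 4, at 5794 CPM, lay below injured replicate 3, at 6144. What the component stands for was not tested.

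The balance of Mt-co3 and Mt-co2 divided the libraries of each group in the same way. The ratio of Mt-co3 to Mt-co2 counts was 0.0765 and 0.0804 in uninjured replicates 1 and 4, and 0.290 and 0.272 in replicates 2 and 3. In injured cord it was 0.0778 and 0.107 in replicates 2 and 4, and 0.121 and 0.148 in replicates 1 and 3. In stimulated cord it was 0.0726 and 0.0703 in replicates 2 and 4, and 0.0985 and 0.137 in replicates 1 and 3. Mt-co2 is the denominator of this ratio, so the division is not a separate observation. The share of Mt-co3 alone did not follow it outside uninjured cord. It was 3.14% in injured replicate 4 and 2.91% in injured replicate 1. In stimulated replicate 1 it was 1.89%, below the 2.29% and 2.04% of replicates 2 and 4. Both genes belong to complex IV, and their balance differed more between the uninjured libraries than between the group means. Those means were 0.180 ± 0.117 (SD, n = 4) without injury, 0.113 ± 0.0293 with injury and 0.0947 ± 0.0312 with stimulation.

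**Figure D5:**
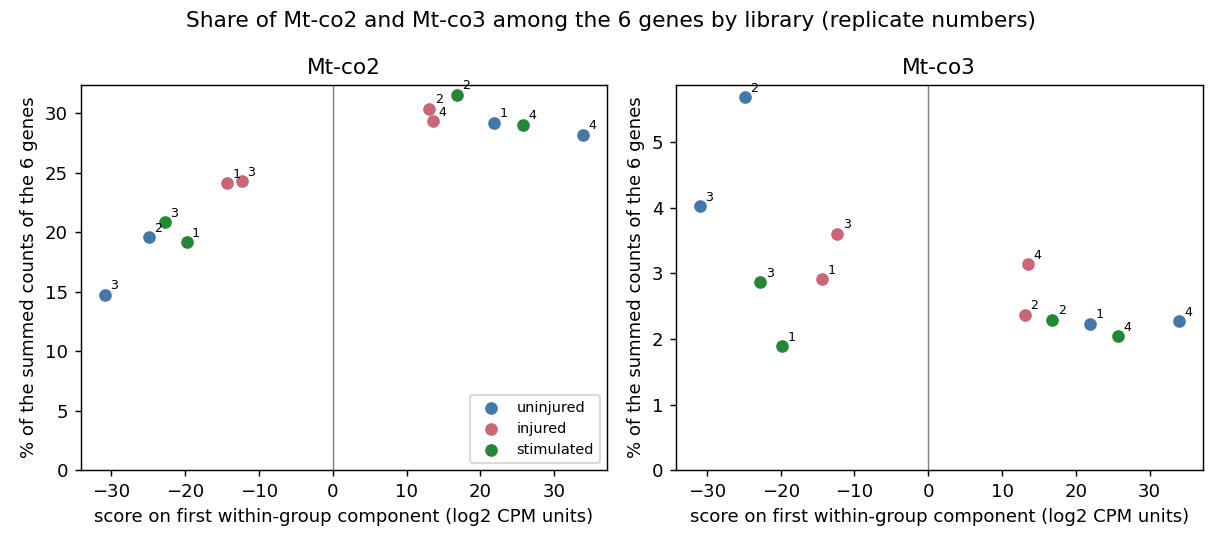
Share of Mt-co2 (left) and Mt-co3 (right) in the summed counts of the 6 genes (y axis, %) against the library's score on the first within-group component of all other tested genes (x axis, log2 CPM units), with points numbered by replicate. Mt-co2 is at 28.2% or more in the 6 libraries to the right of 0 and at 24.3% or less in those to the left. Mt-co3 does not divide the injured or the stimulated libraries in this way.

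Together the 6 genes held 2.36% to 3.46% of all counts in uninjured cord, 2.11% to 2.40% in injured cord and 1.73% to 3.31% in stimulated cord. The means were 2.83% ± 0.486, 2.21% ± 0.140 and 2.54% ± 0.650 (SD, n = 4). Stimulated replicate 1 was at the low end and replicate 4 at the high end of their group, and the other two were at 2.45% and 2.67%. With corrected counts the means were 3.72% ± 0.493, 2.98% ± 0.279 and 2.91% ± 0.936, so that the stimulated mean no longer lay above the injured one. That order rested on stimulated replicate 1, at 1.74%. Stimulated replicates 2, 3 and 4 were at 3.09%, 2.82% and 4.01%, and the injured libraries were at 2.75% to 3.38%. The corrected totals also include genes just below the ceiling, where the correction changes steeply with each count.

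The genes with the most similar profiles were sought by the root mean square difference of centred log2 CPM over the 12 libraries from the mean of the 6 genes. Mt-cyb was the closest of the 6, at 0.11, then Mt-atp6 and Mt-co1 at 0.24 each, Mt-co3 and Mt-co2 at 0.37 each, and Mt-atp8 at 0.39. The median over all tested genes was 0.67. Each of the 6 is part of the mean it was set against, so its closeness is in part built in. Mt-co3, Mt-co2 and Mt-atp8 ranked only 189, 204 and 288 among the 5285 tested genes. The nearest genes outside the list were ENSRNOG00000029707 at 0.17 and ENSRNOG00000060956 at 0.20. The first had a mean count of 2386 and log2 fold changes of -0.59 with injury (edgeR adjusted p = 0.0961) and 0.52 for stimulated against injured cord (adjusted p = 0.558). The second had a mean count of 82.6 and changes of -0.38 (edgeR adjusted p = 0.242) and 0.11 (adjusted p = 0.902). Profiles were compared in deposited counts only. If reads were collapsed to identifiers, undercounting near the ceiling could make the profiles of high-count genes, such as the first, more alike. That was not tested.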

How the data were processed

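The deposited values are raw counts, 1 whole number for each gene in each library. Libraries were made by CEL-Seq2, a 3' tag method, per the labels' protocols. HISAT2 2.0.4, HTSeq 0.6.0 and Rnor_6.0 are named in the submitters' processing notes, with no role or order. Not given in the sources used here are the collapsing by identifier, the annotation release, the strand setting and the handling of reads in overlapping genes or in nuclear copies of mitochondrial sequence. Totals were 204836 to 553986 counts per library.

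The analysis used edgeR 4.0.16 (R 4.3.3) with filterByExpr, TMM and a robust quasi-likelihood fit to 12 libraries with group as the only term (9 residual degrees of freedom). P-values were adjusted over 5285 genes by the Benjamini-Hochberg method. Log2 CPM used a prior count of 2. SEs are the fold change over the square root of F. Intervals came from limma 3.58.1 with voom. Corrected counts were -N ln(1 - count/N), with N the number of identifiers of 6 bases, which assumes that reads were collapsed to them. Single ratios were tested by exact two-sided permutation over 70 arrangements (SciPy 1.17.1). The test was tried on simulated counts. Alternatives were total counts, median-of-ratios factors, library sizes without high-count genes, corrected counts, depth as a covariate, no filter, a mean count of 20, 2 groups only, a replicate block, DESeq2 1.42.0, limma-voom with weights and leaving out each library. The ratios and the component were added after seeing the data.

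The 6 genes and lists were chosen with earlier results of these data known. The reference table matched 0 identifiers to names, so the lists of other subunits and of cell type markers, set by symbol, were not run. Named genes are the 6 and the 2 nearest in profile. Sequences of the 6 genes were not used here.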

Additional observations from a re-analysis of the deposited data

Results flagged for a closer look

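Dixon's test at the 95% level was applied to 24 sets of 4 libraries (the CPM of the 6 genes and 2 ratios in 3 groups). It marked 1 value, and chance alone would mark about 1.2. That value was Mt-atp8 in injured replicate 3, at 335 CPM. The remaining injured libraries had 184 to 197 CPM, so the distance to the next one made up 0.914 of the whole range.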

How the results depend on the processing

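Of the 6 genes, 2 were called with injury, and 1 was with total counts, corrected counts, the depth covariate, no filter, or only the 2 groups compared. That count ranged from 0 to 2 over the 12 fits without 1 library. For stimulated against uninjured cord it ranged from 0 to 1, and for stimulated against injured cord it was 0 in all 11 other settings and all 12 fits. Mt-atp6 was called with injury in 6 of 11 settings and Mt-atp8 in 10 of 11. Over all genes, 1123 were called with injury at a mean count of 20 or more, which left fewer genes to test. Between stimulated and injured cord 28 were called without a filter and 1 by DESeq2, and the count without 1 library was 0 to 1. Total counts moved the median of all genes to 0.12 with injury and -0.15 for stimulated against injured cord.

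Changes of direction were all in values that had not passed the test. With the depth covariate Mt-co2 was at 0.13 with injury, and for stimulated against injured cord Mt-co2 was at -0.26, Mt-co3 at 0.58 and Mt-atp8 at -0.24. With corrected counts Mt-cyb was at -0.068 and the log2 ratio of Mt-co3 to Mt-co2 at 0.043 in that comparison. Mt-co2 in stimulated against uninjured cord was at -0.018 with total counts, -0.058 with corrected counts, -0.13 with the covariate, -0.037 without a filter and -0.0032 with the replicate block. Without 1 library it ranged from -0.22 to 0.25 there, Mt-atp6 from -0.14 to 0.025, and Mt-co3 in stimulated against injured cord from -0.20 to 0.12. The cause was not tested. The Mt-atp6 to Mt-co1 ratio kept its log2 difference of 0.71 to 0.87 for stimulated against injured cord without 1 library, at exact permutation p = 0.0571, the smallest 4 against 3 allows here.

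The replicate block called 1801 genes with injury and the same number of the 6, 2. Same-numbered libraries correlated from -0.344 to 0.429 in their deviations, so the numbers were not taken as pairs. Paired by number, the ratio of Mt-atp6 to Mt-co1 gave exact permutation p = 0.125 for stimulated against injured cord, the smallest that 4 pairs allow. If counts were collapsed to identifiers, the ceiling limits Mt-cyb, Mt-co2 and Mt-atp6, and low counts limit Mt-atp8.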
